A study of Homo sapiens with 7 samples.

Results

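The HOX gene clusters are 38 homeobox genes that lie in 4 groups on chromosomes 7 (HOXA, 10 genes), 17 (HOXB, 10 genes), 12 (HOXC, 9 genes) and 2 (HOXD, 9 genes). They were taken by name from the RefSeq gene table, out of the 19451 coding genes at least 1 kb long on chromosomes 1 to 22 and X. Each gene, and each interval from the first to the last of these genes in a cluster, was described by the percent of its bases that lay under called peaks of 5-hydroxymethylcytosine (5hmC), the oxidised form of 5-methylcytosine made by TET enzymes. The cells were SH-SY5Y, a human neuroblastoma line, carrying by lentivirus a short hairpin RNA either against TDP-43 (shTDP43, 3 libraries, called knockdown here) or a control hairpin (shNC, 3 libraries, called control). Both groups went through the same puromycin selection, 2 µg/mL for 2 weeks and then 1 µg/mL, as stable lines whose hairpin is carried in a U6 vector. In the assay, hMe-Seal, an azide sugar is placed on 5hmC, biotin is coupled to it and the captured fragments are sequenced. The labels do not say that the 3 libraries of a group came from separate cultures or separate infections, so the p-values measure the spread between these libraries, which may be technical. Peak positions do not measure TDP-43 itself, so the knockdown was not checked here.

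HOX proteins are transcription factors that set position along the body axis. Genes at the same place in the different clusters are paralogues and carry the same number, from anterior (1) to posterior (13). In cells that do not use them, HOX clusters are a classical territory of polycomb repression, and their CpG-dense DNA is often free of methylation. 5hmC needs methylated cytosine as its source and is known for gathering over gene bodies, enhancers and the edges of CpG islands. A called peak says where captured fragments rose above background, so a stretch with no called peak is not shown to lack 5hmC.

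The HOX clusters fell into 2 kinds in these cells, with the same division in every library. No peak was called anywhere in the HOXA interval (chr7:27100354-27200091, 99738 bp) or the HOXB interval (chr17:48528526-48728750, 200225 bp), in any of the 6 libraries. The HOXC interval (chr12:53938831-54056030, 117200 bp) carried peaks over HOXC4, HOXC5 and HOXC6, and the HOXD interval (chr2:176087487-176190907, 103421 bp) carried peaks over much of its length. Thus 30 of the 38 members (78.9%) had no peak in any list, and the other 8 had peaks in all 6 lists. Over all coding genes the share without a peak was 33.5% (6517 of 19451). HOX genes are short, with a median length of 3786 bp against 25553 bp, and among the 12214 coding genes within the members' length range (1677 to 45574 bp) the share without a peak was 44.0%. The upper end of that range is set by HOXA3, with HOXB3 (41372 bp) and HOXC4 (39143 bp) near it, while the median member is far shorter. These coding genes are therefore not matched to the members in length. Neighbouring members share a locus and are not independent of each other, so no test was made of this share.

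**Figure D1:**
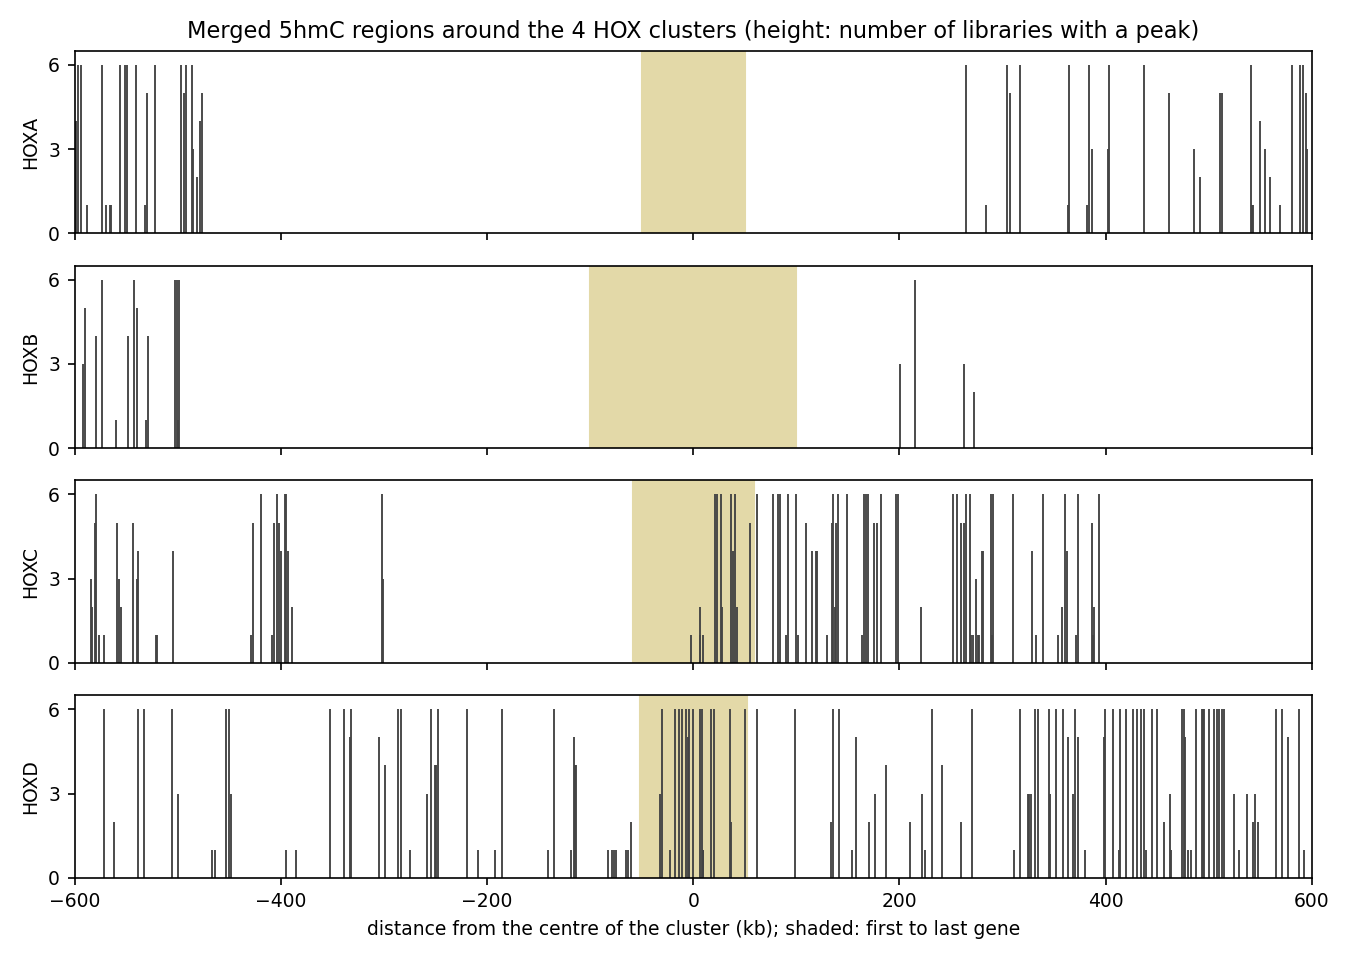
Merged 5hmC regions within 600 kb of the centre of each HOX cluster. Each vertical line is a region, its height is the number of libraries (0 to 6) with a peak there, the x axis is distance from the cluster's centre in kb and the shading spans the first to the last member. HOXA and HOXB lie in stretches with no line, HOXC has lines in its right part and HOXD has lines across most of its width.

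The lists differed in size by more than the groups did. Controls had 117949 to 157157 peaks covering 80.8 to 111 Mb, and knockdowns had 119820 to 142605 peaks covering 78.2 to 98.8 Mb, with group means of 92.3 ± 16.5 and 88.8 ± 10.3 Mb (SD, n = 3 each, exact permutation p = 0.8). The lists hold no read totals, so the depth is unknown and no counting interval can be given. The median −log10 p-value of peaks with a fold of 4.9 to 5.1, which rises with depth and background, was 11.0 to 13.7 in controls and 8.25 to 12.5 in knockdowns (exact permutation p = 0.2). Its part in the results was not tested.

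The sequence around the start sites shows how different these promoters are in CpG content. RefSeq promoter windows (GRCh38.p14, 250 bases before to 50 after a start site) were given for 20 of the 38 members, 26 distinct windows in all. The dinucleotide searched was CG, which reads the same on both strands, and 96.2% of the HOX windows and 98.2% of all coding promoter windows held at least 1. The 6 windows printed here are on the plus strand except that of HOXA13, run 5′ to 3′ and have each CG in capitals. They were picked because HOXA13 holds the most CG of the peak-free HOXA cluster, HOXC4 starts the covered arm of HOXC, HOXD8 and HOXD3 are touched by peaks, HOXD1 is the most covered member and HOXD4 has few CG. Their positions, in the same order, are chr7:27200042-27200341, chr12:54016638-54016937, chr2:176129455-176129754, chr2:176157057-176157356, chr2:176188418-176188717 and chr2:176151300-176151599.
HOXA13: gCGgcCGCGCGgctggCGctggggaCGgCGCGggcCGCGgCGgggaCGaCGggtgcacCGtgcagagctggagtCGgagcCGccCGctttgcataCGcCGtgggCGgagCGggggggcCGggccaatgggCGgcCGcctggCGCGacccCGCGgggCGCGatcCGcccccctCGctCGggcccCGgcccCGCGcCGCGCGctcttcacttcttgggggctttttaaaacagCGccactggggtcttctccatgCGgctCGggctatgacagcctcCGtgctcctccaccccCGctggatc
HOXC4: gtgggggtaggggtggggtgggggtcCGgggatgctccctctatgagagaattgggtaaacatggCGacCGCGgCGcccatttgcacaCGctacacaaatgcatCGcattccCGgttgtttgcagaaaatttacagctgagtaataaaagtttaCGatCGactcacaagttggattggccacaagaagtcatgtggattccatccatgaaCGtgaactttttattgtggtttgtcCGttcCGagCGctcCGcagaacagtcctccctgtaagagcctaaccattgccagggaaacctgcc
HOXD8: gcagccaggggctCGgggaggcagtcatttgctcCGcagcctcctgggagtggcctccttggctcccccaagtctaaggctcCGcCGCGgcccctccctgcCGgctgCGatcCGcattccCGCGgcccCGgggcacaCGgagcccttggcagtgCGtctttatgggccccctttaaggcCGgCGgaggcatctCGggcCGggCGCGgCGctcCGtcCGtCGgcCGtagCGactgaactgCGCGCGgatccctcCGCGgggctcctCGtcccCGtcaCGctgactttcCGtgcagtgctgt
HOXD3: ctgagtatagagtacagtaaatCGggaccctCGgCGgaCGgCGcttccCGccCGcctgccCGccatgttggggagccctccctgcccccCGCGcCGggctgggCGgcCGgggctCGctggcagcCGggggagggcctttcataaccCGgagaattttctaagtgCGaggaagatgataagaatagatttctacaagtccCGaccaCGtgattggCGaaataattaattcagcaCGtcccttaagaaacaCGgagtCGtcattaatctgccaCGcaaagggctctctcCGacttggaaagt
HOXD1: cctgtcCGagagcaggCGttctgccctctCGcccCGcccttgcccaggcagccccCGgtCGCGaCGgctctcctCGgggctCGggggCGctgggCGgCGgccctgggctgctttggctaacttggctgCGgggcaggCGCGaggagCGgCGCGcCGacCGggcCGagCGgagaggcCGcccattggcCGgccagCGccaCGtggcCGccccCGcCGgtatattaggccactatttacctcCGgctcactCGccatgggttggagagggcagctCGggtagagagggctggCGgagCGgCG
HOXD4: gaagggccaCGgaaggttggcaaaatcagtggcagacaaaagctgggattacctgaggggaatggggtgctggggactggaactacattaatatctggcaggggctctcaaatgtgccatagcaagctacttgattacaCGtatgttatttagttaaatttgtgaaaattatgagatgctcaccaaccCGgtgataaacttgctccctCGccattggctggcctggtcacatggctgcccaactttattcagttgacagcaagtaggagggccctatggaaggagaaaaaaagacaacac

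These 6 windows hold 44, 15, 34, 25, 36 and 4 CG. The median ratio of observed to expected CG was 0.855 over the HOX windows and 0.742 over 21582 coding windows, and the median GC content was 58.0% and 62.7%. Peaks overlapped 3 of the 26 HOX windows (11.5%), and none of the 3 in all 6 lists. Over all coding promoters, 12.3% were overlapped in at least 1 list and 4.46% in all 6. Among coding windows of a ratio over 0.8, where 14 of the HOX windows fall, 6.44% had a peak, against 19.9% of those under 0.4. The pooled HOX share was close to that of all coding promoters, which are not matched to the HOX windows in CG ratio. All 3 touched HOX windows were among the 14 with a ratio over 0.8 (HOXD8 0.887, HOXD10 0.860 and HOXD3 0.991). The clusters also differed. HOXA gave 16 of the 26 windows, and no peak touched them. HOXB and HOXC gave 1 window each, also without a peak. The 3 touched windows were all among the 8 of HOXD (37.5%). The pooled share thus depends on which windows were given and does not describe each cluster.

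Of those 3, the HOXD8 promoter was overlapped in every control and in no knockdown. In controls 1 to 3, peaks covered 21.7%, 35.0% and 5.67% of its 300 bases, and in each knockdown 0%. The overlap comes from the edge of a region seen in all 6 lists (chr2:176128026-176129559) just before the gene, whose last base lay 146 to 234 bases from the start site in controls and 281 to 332 bases in knockdowns. The HOXD3 promoter was overlapped for 6.67%, 0.667% and 26.7% in controls and for 0%, 0% and 9.67% in knockdowns, so its groups overlap. The HOXD10 promoter was overlapped in control 1 alone, for 46.7% of its bases. At HOXD1, whose promoter is the richest in CG of the HOXD windows, the nearest peak stayed 307 to 396 bases from the start site in all 6 libraries. The start shared by HOXC4 and HOXC5 lay 1552 to 1634 bases from its nearest peak.

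HOXA, whose genes pattern limbs, hindbrain and the reproductive tract, was peak-free well beyond its own ends. The nearest peak lay 426.6 to 436.2 kb before HOXA2 and 214.5 to 214.7 kb after HOXA13 in the 6 libraries. Pooled over all lists, the peak-free stretch was chr7:26673769-27414554, or 740.8 kb. Stretches at least as long made up 301 of the 200795 gaps between merged regions (0.15%), and the median gap was 4418 bp. Gaps in the assembly and unmappable sequence were not taken out of that comparison. All 10 HOXA members, HOXA2 to HOXA13, were therefore at 0% in 6 of 6 libraries. The 4 long noncoding genes of the interval, HOXA-AS2, HOXA-AS3, HOXA10-AS and HOXA11-AS, and the microRNA gene MIR196B were at 0% as well.

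HOXB, with genes of the hindbrain and spinal cord and, set apart from them, the prostate and colon gene HOXB13, gave the same picture. The nearest peak before HOXB1 lay 397.8 to 398.1 kb away. After HOXB13 it lay 99847 to 99863 bases away in controls and 114946 to 114976 bases away in knockdowns, because a region found in the controls was in no knockdown list. Pooled over the lists, the peak-free stretch was chr17:48130700-48828596, 697.9 kb long, and 323 gaps (0.161%) were at least that long. All 10 HOXB members, 7 long noncoding genes, 3 microRNA genes and 2 pseudogenes of the interval were at 0% in every library. The neighbours SKAP1, an adaptor of T cell receptor signalling, and TTLL6, a tubulin glutamylase, were in the same stretch and also at 0%. Of the 428 gaps of at least 500 kb, 55 held 10 or more coding genes, so the 2 HOX stretches are among the few long gaps that are rich in genes and are not alone in this.

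HOXC was split between a peak-free posterior arm and a covered anterior end. HOXC13, HOXC12, HOXC11 and HOXC10 lay inside a stretch of 298.6 kb (chr12:53696741-53995337) with no peak in any list, and HOXC9 and HOXC8 also had none inside the gene. Scattered peaks between HOXC10 and HOXC8 were called in 1 or 2 libraries each, the closest 94 bases beyond HOXC9 in control 1. Peaks called in all 6 libraries began 1552 bases or more after the start shared by HOXC4, HOXC5 and HOXC6. In the RefSeq table these 3 genes start at the same base, 54016888, and end at 54056030, 54035361 and 54030823, so HOXC6 lies within HOXC5 and HOXC5 within HOXC4, and a peak in HOXC6 counts for all 3.

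**Figure D2:**
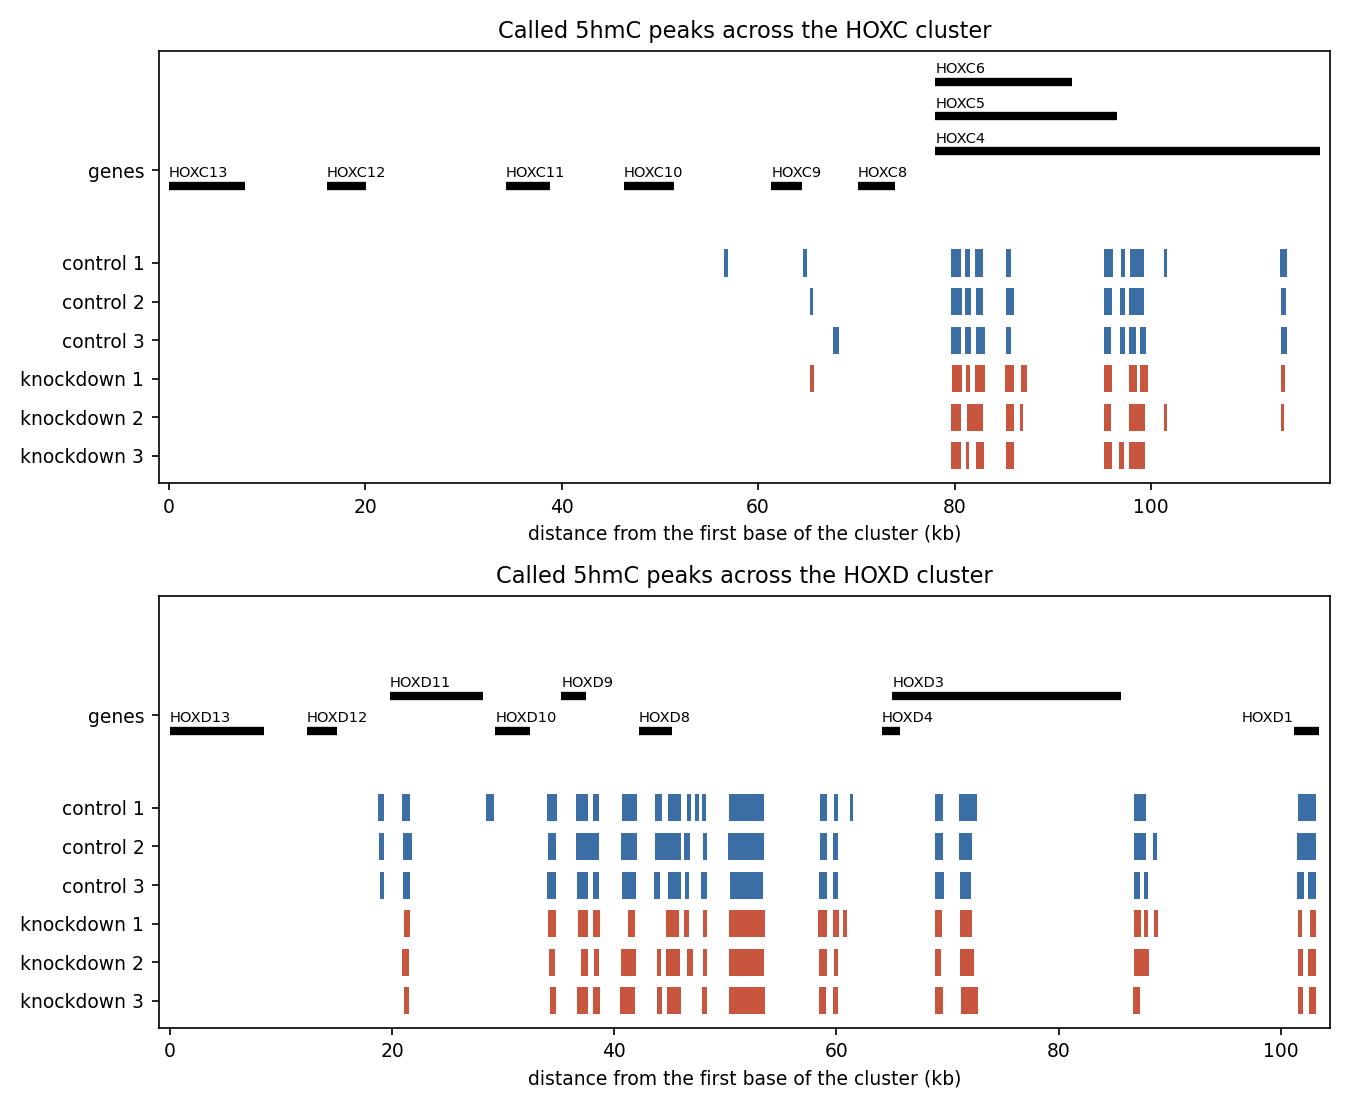
Called 5hmC peaks across HOXC (top) and HOXD (bottom). Black bars are the members, coloured blocks are the peaks of controls 1 to 3 (blue) and knockdowns 1 to 3 (red), and the x axis is distance from the first base of the cluster in kb. In HOXC the peaks shared by all 6 libraries lie over HOXC4, HOXC5 and HOXC6, and in HOXD no library has a peak over HOXD13 or HOXD12.

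Controls 1 to 3 had 6.47%, 5.83% and 5.81% of the whole HOXC interval covered, and knockdowns 1 to 3 had 6.07%, 5.91% and 5.22%. The groups overlap. The means were 6.03 ± 0.376% and 5.73 ± 0.449% (SD, n = 3 each), a difference of −0.30 percentage points with an exact permutation p of 0.6 (two-sided, adjusted p = 0.6 over the 2 clusters that had peaks). The lists had 10 ± 1 peaks in the interval in controls and 8.33 ± 1.53 in knockdowns (exact permutation p = 0.3). Nearly all covered bases lay in member genes, 91.4 ± 3.5% in controls and 98.1 ± 3.26% in knockdowns (exact permutation p = 0.2).

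HOXC6, an anterior member that patterns the thorax, was covered for 20.4%, 22.4% and 21.0% of its length in controls and for 28.7%, 28.2% and 23.0% in knockdowns. Every knockdown value lay above every control value. The log2 difference, on the scale log2(percent + 1) with each library centred, was 0.41 ± 0.14 (SE) and the limma adjusted p was 0.305. HOXC5, its neighbour of paralogue group 5, was covered for 20.1%, 21.3% and 19.8% in controls and 26.0%, 24.9% and 21.6% in knockdowns, again without overlap (log2 difference 0.34 ± 0.12, limma adjusted p = 0.349). HOXC4, the longest of the 3 and the one that reaches farthest, was covered for 17.1%, 16.6% and 15.8% in controls and 17.1%, 17.7% and 15.6% in knockdowns (log2 difference 0.13 ± 0.14, limma adjusted p = 0.675). Its groups overlap, and the difference was 0.047 without control 2, 0.034 without knockdown 2, 0.053 with equal numbers of peaks and 0.025 without centring. Since HOXC6 lies within HOXC5, the higher values of the 2 genes are not independent observations.

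Within HOXC6, 2 neighbouring regions differed most in covered bases. At chr12:54024016-54024934, controls had 448, 757 and 532 bases under peaks and knockdowns had 899, 888 and 881. At chr12:54025481-54026188, just beyond it, peaks were called in knockdowns 1 and 2 (586 and 370 bases) and in no other library. The 10 kb window that holds both, chr12:54020001-54030000, was covered for 18.3 ± 1.35% in controls and 26.3 ± 4.61% in knockdowns (limma adjusted p = 0.311). At the far end of HOXC4 the order was the other way. The window chr12:54050001-54060000, which spans the end of the gene and a region beyond it, was covered for 23.6%, 20.2% and 22.2% in controls and 12.5%, 13.7% and 8.56% in knockdowns (limma adjusted p = 0.227). Neither window passed the test.

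The 3 widest HOXC regions with a peak in every library all lay inside HOXC4. The region chr12:54019900-54021932 spanned 2033 bp, chr12:54036596-54038507 spanned 1912 bp and chr12:54018440-54019613 spanned 1174 bp. The first and the last of these also lie in HOXC6. The other, beyond the ends of HOXC5 and HOXC6, had 1412, 1520 and 1361 bases under peaks in controls and 1548, 1561 and 1586 in knockdowns, so every knockdown was wider. In the last, the values were 1093, 1068 and 1004 bases in controls and 1092, 993 and 1066 in knockdowns, which overlap.

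HOXD, the cluster of the distal limb and of the trunk and genital axis, was the most covered of the 4. Controls 1 to 3 had 17.5%, 17.6% and 15.0% of the interval covered, and knockdowns 1 to 3 had 13.8%, 14.2% and 14.2%. Every knockdown lay below every control. The means were 16.7 ± 1.49% and 14.1 ± 0.238% (SD, n = 3 each), a difference of −2.64 percentage points. The exact permutation p was 0.1, two-sided, which is the smallest that 3 against 3 libraries can give, and 0.2 after adjustment over the 2 clusters with peaks. Counted as bases in HOXD per Mb of covered genome, the values were 224, 164 and 182 in controls and 144, 188 and 164 in knockdowns, so on that scale the groups overlap (exact permutation p = 0.5). The number of peaks was 18.3 ± 2.08 in controls and 17.3 ± 1.53 in knockdowns (exact permutation p = 0.8).

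Most of the covered bases of HOXD lay between the members. Member genes held 36.6 ± 1.04% of the covered bases in controls and 33.9 ± 4.01% in knockdowns (exact permutation p = 0.4). Of the bases outside members, 21.2 ± 1.72% were covered in controls and 18.6 ± 0.881% in knockdowns, and of the bases inside members 12.2 ± 1.33% and 9.55 ± 1.26% (exact permutation p = 0.2 for each). HOXD13 and HOXD12, the posterior genes of digit patterning, lay in a peak-free stretch of 27.2 kb (chr2:176079064-176106241). HOXD10 and HOXD4 had no peak inside the gene either. The 5 other members were covered in all 6 libraries.

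**Figure D3:**
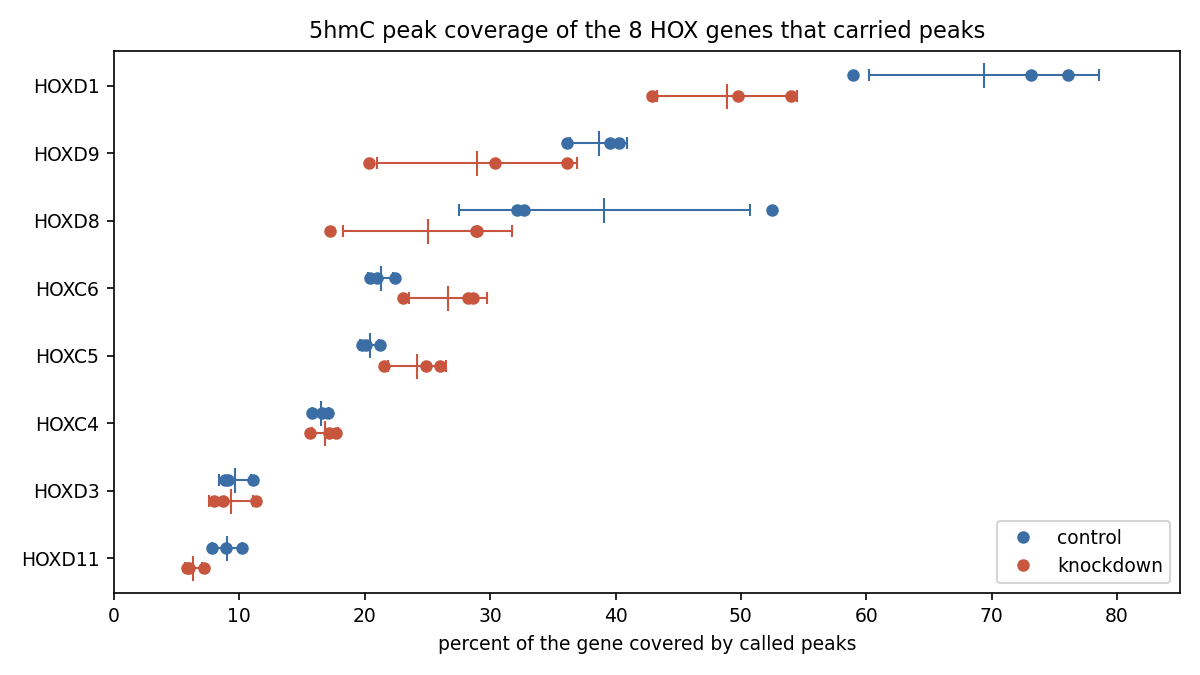
Percent of each gene under called 5hmC peaks for the 8 HOX members that carried peaks. Points are libraries (controls in blue, knockdowns in red), vertical ticks are group means and bars are SD over 3 libraries. HOXD1 runs from 42.9% to 76.1%, all 3 of its knockdowns below its controls, while HOXC5 and HOXC6 have all knockdowns above their controls.

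HOXD1, the anterior end of the cluster, had the highest coverage of all members. Peaks covered 73.2%, 76.1% and 59.0% of the gene in controls and 42.9%, 54.0% and 49.7% in knockdowns. The means were 69.4 ± 9.17% and 48.9 ± 5.58% (SD, n = 3 each), with no overlap between the groups. The log2 difference was −0.39 ± 0.16 (SE) and the limma adjusted p was 0.386, with a difference of −0.25 without knockdown 1. These bases belong to 1 region, chr2:176188975-176190679, in which 1639, 1705 and 1321 bases were under peaks in controls and 962, 1210 and 1114 in knockdowns. Controls 1 and 2 had 1 wide peak there, while control 3 and the 3 knockdowns each had 2 narrower ones, so the number of peaks was higher in the knockdowns and the covered length lower.

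HOXD8, a central gene of the trunk, was covered for 32.7%, 52.5% and 32.1% in controls and 17.3%, 28.9% and 29.0% in knockdowns. Control 2 stands far above the rest and knockdown 1 far below, and the groups do not overlap (log2 difference −0.51 ± 0.27, limma adjusted p = 0.455). The difference was −0.23 without knockdown 1, −0.24 with 2 kb added to each side of the gene, −0.13 with equal numbers of peaks and −0.087 with stricter peaks. HOXD9, next to it, was covered for 40.3%, 39.6% and 36.1% in controls and 30.4%, 20.3% and 36.1% in knockdowns. Control 3 and knockdown 3 have the same value, so the groups touch (log2 difference −0.33 ± 0.18, limma adjusted p = 0.463). Without knockdown 2 the difference was −0.17. HOXD11, a gene of the forearm and kidney, was covered for 8.93%, 10.2% and 7.83% in controls and 6.00%, 7.14% and 5.86% in knockdowns, without overlap (log2 difference −0.33 ± 0.15, limma adjusted p = 0.405). With 2 kb added to each side of the gene, which takes in the region called in controls alone, it was −1.08 (limma adjusted p = 0.146). HOXD3, which spans 20570 bp and overlaps HOXD4, was covered for 11.1%, 9.07% and 8.82% in controls and 7.99%, 8.67% and 11.3% in knockdowns (log2 difference 0.06 ± 0.20, limma adjusted p = 0.916). Its groups overlap, and its sign turns to −0.05 when the libraries are not centred.

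All 8 covered members entered the fit over 10825 genes and none was called by limma, in either direction. Over all tested genes 0.212% were called higher in knockdown (23 genes) and 0.711% lower (77 genes), so for 8 genes a count of 0 is close to the background. At an unadjusted p under 0.05 there were 2 members, HOXC5 and HOXC6, and 1410 genes in all. Members with all knockdowns above all controls numbered 2, where 3.33% of tested genes did the same, and the 2 are the nested HOXC5 and HOXC6. Those with all knockdowns below all controls numbered 3 (HOXD1, HOXD8 and HOXD11), against 18.2% of tested genes. The log2 difference was positive in 4 members and negative in 4, with a median of −0.14 against 0.02 over all tested genes. Without centring it was positive in 3 and negative in 5, with a median of −0.25 against −0.09 over all tested genes.

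Set against other coding genes that had a peak, the covered members were densely covered for their length. The mean coverage of HOXD1 over the 6 libraries, 59.2%, was above that of 99.8% of those genes. The corresponding shares were 98.6% for HOXD9, 98.4% for HOXD8, 96.6% for HOXC6, 96.0% for HOXC5, 92.7% for HOXC4, 81.5% for HOXD3 and 75.3% for HOXD11. The median over the 8 members was 23.1%, and over the tested genes 4.57%. In that order, the range of HOXD1 over the 6 libraries lay above that of HOXD9 but overlapped that of HOXD8, whose highest library was at 52.5%. Among HOXD9, HOXD8, HOXC6 and HOXC5, each range overlaps the next. HOXC4 lies below HOXC5 without overlap, and HOXD3 and HOXD11, lower still, overlap each other. A short gene reaches a high percent with a single peak, so these ranks are a description of coverage per length.

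By paralogue group, no more than 1 member had a peak. Groups 1, 3, 8, 9 and 11 were represented by their HOXD gene and groups 4, 5 and 6 by their HOXC gene. Since HOXC6 lies within HOXC5 and HOXC5 within HOXC4, groups 4, 5 and 6 share peaks and are not separate observations. Groups 2, 7, 10, 12 and 13 had no covered member. In group 9, for example, HOXD9 was covered for 20.3% to 40.3% of its length, while HOXA9, HOXB9 and HOXC9 were at 0% in all 6 libraries.

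Across HOXC and HOXD the peaks of the 6 lists merged into 33 regions, 13 in HOXC and 20 in HOXD. Of these, 18 (54.5%) had a peak in all 6 libraries, 5 in HOXC and 13 in HOXD, against 35.5% of all 200818 merged regions. In 1 region a peak was called in all 3 controls and in no knockdown, where 1.97% of all regions behave so. It lies at chr2:176106242-176106763, between HOXD12 and HOXD11, 517 bp before HOXD11, and had 501, 476 and 350 bases under peaks in the controls. The authors' fold for these peaks was 3.52, 3.62 and 3.36, above that of 12.9% to 20.2% of the peaks of their own lists. No region had a peak in all 3 knockdowns and no control, where the share over all regions was 1.06%.

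**Figure D4:**
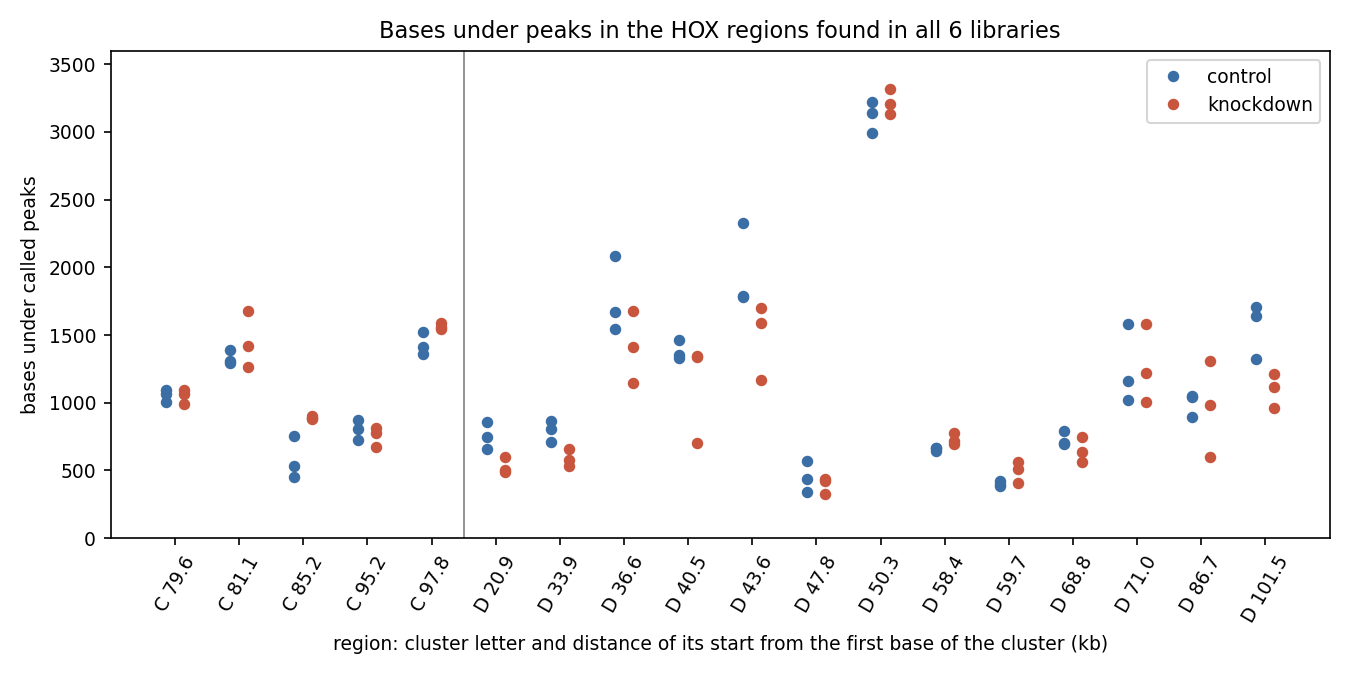
Bases under called peaks in the 18 HOX regions found in all 6 libraries, 5 in HOXC (left of the line) and 13 in HOXD. Points are libraries (controls in blue, knockdowns in red), and each region is named by its cluster letter and the distance of its start from the first base of the cluster in kb. All knockdowns lie below all controls in 4 regions, all of them in HOXD, and above in 3.

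Within the 18 shared regions, covered length was greater in every knockdown in 3 and smaller in every knockdown in 4. Over all shared regions the shares were 7.3% and 14.2%. The 3 wider ones were the regions chr12:54024016-54024934 and chr12:54036596-54038507 described above, and chr2:176145873-176146666 between HOXD8 and HOXD4. The 4 narrower ones were all in HOXD: in HOXD11 (chr2:176108339-176109289), 434 bp before HOXD9 (chr2:176121402-176122285), in HOXD8 (chr2:176131074-176133528) and in HOXD1. In the region before HOXD9, 864, 712 and 809 bases were covered in controls and 659, 534 and 576 in knockdowns. In the region inside HOXD11 the values were 750, 858 and 658 bases in controls and 504, 600 and 492 in knockdowns.

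The region between HOXD8 and HOXD4 had the highest fold of any HOX peak, by the authors' values, in control 3 and in each knockdown. Its fold was 9.55, 11.4 and 14.2 in the controls and 13.6, 15.7 and 17.1 in the knockdowns, which placed it above 84.9% to 98.2% of the peaks of its own list. Folds of different lists are not on a common scale, so the groups are not compared. It had 644, 667 and 663 bases under peaks in controls and 773, 692 and 714 in knockdowns. The 3 widest HOXD regions in all 6 libraries were chr2:176137752-176141100 (3349 bp), chr2:176131074-176133528 (2455 bp, in HOXD8) and chr2:176124044-176126186 (2143 bp, over the end of HOXD9). The first, over the long noncoding gene LOC401021, had 3142, 3221 and 2990 bases under peaks in controls and 3318, 3135 and 3205 in knockdowns, with groups that overlap.

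In windows of 10 kb, the 4 intervals took 57 windows, of which 40 had no peak in any library and 15 were tested. None was called by limma, and among all 102619 tested windows 0% were called higher and 0% lower, with 12925 at an unadjusted p under 0.05 and 4 of them in HOX. The smallest limma adjusted p was 0.147 over the genome and 0.155 in HOX. The latter was chr2:176100001-176110000, which holds the start of HOXD11 and the region found in controls alone. It was covered for 12.5%, 13.3% and 10.1% in controls and 5.04%, 6.00% and 4.92% in knockdowns, a log2 difference of −0.98 ± 0.24. All knockdowns lay above all controls in 1 HOX window (6.17% of all tested windows) and below in 5 (12.3% of all), 4 of these in HOXD.

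Noncoding genes followed the same division between clusters. Of the 5 long noncoding genes in HOXD, 4 had peaks in all 6 libraries. LOC401021 was covered for 68.0 ± 1.63% in controls and 67.8 ± 1.05% in knockdowns (SD, n = 3 each). LOC100129455, which overlaps the start of HOXD8, was covered for 50.1%, 54.1% and 49.1% in controls and 26.0%, 49.6% and 49.9% in knockdowns, where knockdown 1 alone is far from the rest. HOXD-AS2 was at 23.7 ± 3.93% and 17.6 ± 2.67%, and HAGLR, which runs from beyond HOXD3 into the first bases of HOXD1, at 7.08 ± 1.72% and 6.80 ± 2.61%. In HOXC, HOTAIR, a long noncoding RNA known for its reported link to silencing of HOXD, was at 0% in all libraries, and of the 7 long noncoding genes there HOXC-AS2 alone had a peak, in control 1.

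The clusters also hold microRNA genes, of which the miR-196 and miR-10 families are known to target HOX messages. The mature sequences of 4 of them, from RefSeq (GRCh38.p14), are given with the seed, bases 2 to 8, in capitals. The miR-196 pair is shown because the same seed recurs in different clusters, miR-10a-5p as a microRNA of the peak-free HOXB cluster and miR-615-3p because a peak reached its hairpin.
hsa-miR-196a-5p: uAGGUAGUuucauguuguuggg
hsa-miR-196b-5p: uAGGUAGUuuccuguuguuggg
hsa-miR-10a-5p: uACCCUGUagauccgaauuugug
hsa-miR-615-3p: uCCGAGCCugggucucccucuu

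miR-196a-5p comes from MIR196A1 in HOXB and MIR196A2 in HOXC, and miR-196b-5p from MIR196B in HOXA, and all carry the seed AGGUAGU. None of these 3 hairpin genes was under a peak in any library. MIR10A in HOXB and MIR10B in HOXD were also at 0%, the nearest peak to MIR10B lying 1288 to 2696 bases away and that to MIR10A 248650 bases or more. The MIR615 hairpin, inside HOXC5, was covered for 32.3% in control 2 and for 0% in the other libraries, where a peak began within 27 bases of it. MIR7704, inside HOXD1, was at 0% with a peak 74 to 163 bases away. In all, 1 of the 8 microRNA genes and 5 of the 23 long noncoding genes had a peak in any library.

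Other genes of the HOX system were counted in the same limma fit, with none called in any list and 1 of the 37 tested at an unadjusted p under 0.05 (PHF19, a polycomb gene, 7.60 ± 1.29% in controls and 4.75 ± 0.954% in knockdowns). The TALE cofactors, homeodomain partners that bind DNA with HOX proteins, had peaks in 9 of 9 genes, with a median coverage of 13.9%, and the difference was positive in 5 and negative in 4 (4 and 5 without centring). MEIS2 was at 29.8 ± 9.25% in controls and 28.4 ± 4.40% in knockdowns, and MEIS3 at 21.7 ± 2.41% and 18.9 ± 1.24% (SD, n = 3 each). Of the ParaHox and CDX genes, the sister cluster of HOX and its upstream regulators, 1 of 6 had a peak, CDX1 (3.55 ± 0.152% and 3.55 ± 0.213%), and CDX2, CDX4, GSX1, GSX2 and PDX1 were at 0% as HOXA and HOXB were. Of the even-skipped genes, which flank HOXA and HOXD, EVX1 had no peak and EVX2 had one in control 2 (4.99%) and in knockdown 3 (6.25%).

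Of 20 polycomb genes, 19 had a peak and 13 were tested, 6 with a positive and 7 with a negative difference (median −0.01, and 5 and 8 without centring). The subunit gene CBX8 was covered for 35.5 ± 4.10% in controls and 39.7 ± 2.97% in knockdowns. Of 10 trithorax and demethylase genes, which oppose polycomb at HOX loci, 7 had a peak and 4 were tested (2 positive, 2 negative, median −0.04, and 1 and 3 without centring), with WDR5 at 2.13 ± 0.679% and 2.99 ± 0.81% and KDM6B at 2.15 ± 0.847% and 2.58 ± 3.1%. All 7 boundary and cohesin genes had a peak and the 5 tested had positive differences after centring (median 0.15). Without centring CTCF turned negative, 4 were positive and the median was 0.04, with RAD21 at 10.2 ± 6.83% and 11.6 ± 4.60% and CTCF at 4.59 ± 0.924% and 4.44 ± 1.57%. Among the genes next to the clusters, 8 could be measured, 3 had no peak (SKAP1, TTLL6 and CALCOCO1) and 4 were tested (2 positive, 2 negative with or without centring, median 0.03 and −0.08). SMUG1, a DNA glycosylase gene of this list, was covered for 16.6%, 14.5% and 12.9% in controls and 11.1%, 7.32% and 11.8% in knockdowns. Its groups did not overlap (log2 difference −0.41 ± 0.18, limma adjusted p = 0.39). HIBADH was at 4.32 ± 1.67% in controls and 3.43 ± 0.583% in knockdowns.

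Coverage by peaks is not expression and does not identify a cell, but the markers of the labelled line were looked at on the same scale. Of 10 noradrenergic neuroblastoma markers, 7 had a peak, and the median coverage of all 10, those at 0% included, ranged from 15.7% to 16.9% over controls and 17.5% to 20.2% over knockdowns. TH and DBH, enzymes of catecholamine synthesis, were at 45.0 ± 3.12% and 36.8 ± 5.74% in controls and 50.3 ± 6.82% and 41.3 ± 0.953% in knockdowns. The defining transcription factor genes PHOX2A and HAND2 were at 0% in every library, as HOXA and HOXB were. Of 9 mesenchymal markers 7 had a peak (median of all 9 0.556% to 3.92% over controls and 0.0118% to 2.94% over knockdowns), and of 5 glial markers 3 had one (median of all 5 4.18% to 4.80% and 0% to 4.51%), with SOX10, ERBB3, PRRX1 and TWIST1 at 0%. No marker was called by limma, and 2 of the 16 tested had an unadjusted p under 0.05, FOSL1 and RUNX1, both lower in knockdown. The difference was positive in 7 of 7 tested noradrenergic markers (6 of 7 without centring, median log2 0.26 and 0.15), negative in 5 of 6 mesenchymal ones (median −0.81) and in 3 of 3 glial ones (median −0.18), and its part in the HOX values was not tested.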

How the data were processed

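5hmC was profiled in 6 libraries of SH-SY5Y cells (3 controls, 3 knockdowns), and the input library was not used here. The submitters' processing notes name hg38, Bowtie2 2.4.4, SAMtools and MACS2 2.2.6 without saying what each did. Peaks were deposited as 1 list per library. Each deposited peak has a position, a score, a fold over background, and −log10 values of its p-value and q-value, all the authors' own values, used here to describe, rank or filter peaks within a list and, for p-value at a set fold, as a rough sign of depth. Read totals, and whether the input served as control for peak calling, are matters not given in the sources used.

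From peak positions, the percent of bases covered was computed per gene (RefSeq gene bodies, GRCh38.p14), cluster interval and 10 kb window, on chromosomes 1 to 22 and X. Coverage depends on the caller's threshold and on depth. Clusters were compared by an exact two-sided permutation test of 3 against 3 libraries (smallest possible p 0.1), with Benjamini-Hochberg adjustment over the 2 clusters with peaks, since HOXA and HOXB have no values to compare. Genes of at least 1 kb and windows, each with a mean coverage of at least 1%, were tested with limma 3.58.1 (R 4.3.3) with a variance trend on log2(percent + 1), each library centred on its median deviation, and p-values were adjusted over all genes or windows at 0.05. A fold on that scale understates changes at low coverage. Merged regions are the union of the 6 lists. The fit was tested on simulated data before use.

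The members and the gene lists were chosen with earlier results of these data known. Values per library are given for clusters, for the members of highest coverage and for those whose groups do not overlap, and for each other list up to 2 genes of highest coverage are named (some genes are not reported here), except that the promoters, microRNAs, PHF19, FOSL1, RUNX1 and genes at 0% were chosen after their values were seen. Alternatives were stricter peaks (−log10 q-value of at least 5), equal numbers of peaks per list, each library left out, other pseudocounts, filters, windows and intervals, no centring, peaks per 10 kb and a replicate block.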

Additional observations from a re-analysis of the deposited data

How the results depend on the processing

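No HOX member and no HOX window was called in any of the 17 and 15 settings run for genes and windows. HOXA and HOXB stayed at 0 in all 11 settings run for clusters, which could not have changed this. Those settings remove or rescale peaks or add 10 kb to an interval, and the nearest peak lay 99.8 kb or more away. The HOXD difference kept its sign in all 12 settings, from −3.51 points (without control 3) to −2.14 (equal numbers of peaks) on the percent scale, and the exact p ranged from 0.1 to 0.8. The HOXC difference kept its sign too and reached −0.87 points (exact permutation p = 0.1) when the interval was extended by 10 kb on each side. Leaving out 1 library at a time gave −3.51 to −2.19 points for HOXD and −0.47 to −0.05 for HOXC (−0.05 without knockdown 3, −0.085 without control 1). Regions found in all controls and no knockdown numbered 2 with stricter peaks and 2 with equal numbers of peaks, and 1 to 2 without 1 library. Regions in knockdowns alone numbered 0 to 1 without 1 library (1 without knockdown 3) and 1 when 2 of 3 libraries sufficed. HOXD3 changed sign without control 2 (−0.073), without knockdown 3 (−0.066) and without centring (−0.052), and ranged from −0.073 to 0.201 without 1 library. Counted as peaks per 10 kb in place of covered bases, the log2 difference turned to −0.041 for HOXC4 and 0.61 for HOXD1. At HOXD1, controls had 1, 1 and 2 peaks and each knockdown had 2. The difference was 0.040 for HOXD8, HOXD9 and HOXD11, as for HOXD3. HOXD9 and HOXD11 had 1 peak in every library, and HOXD3 had 2. HOXD8 had 2, 1 and 2 in controls and 1, 2 and 2 in knockdowns. Peak counts of these genes did not differ between the groups, so the 0.040 comes from centring the libraries. HOXC4 had 9, 8 and 9 peaks in controls and 9, 8 and 7 in knockdowns, with the lowest count in knockdown 3. On that scale HOXC5 and HOXC6 were at 0.11 and 0.12.

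Over all genes, calls ranged from 5 to 47 higher and from 27 to 128 lower. They were 40, 47 and 11 higher without controls 1, 2 and 3, 40 higher with equal numbers of peaks, and 116 lower without knockdown 1. The calls lower in knockdown were 120 with stricter peaks, 120 without centring, 128 with peaks per 10 kb and 51 among genes of at least 5 kb. Called windows over the genome were 155 with equal numbers of peaks, 6 with a pseudocount of 4 and 5 with windows of 25 kb, none of them in HOX. Libraries of the same replicate number were not seen to deviate together (r of −0.10, −0.05 and 0.01). The labels do not say what a number marks. With 3 libraries per group these correlations cannot show whether the numbers pair the libraries. With a replicate block the genome gave 5 genes higher and 27 lower, no HOX member was called, and a sign-flip test over pairs gave exact p = 0.25 for HOXD (−2.64 points) and 0.5 for HOXC (−0.30 points). The number of reads, and so what depth limits, is unknown.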
